A study of Homo sapiens with 8 samples.

Results

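The cytosolic ribosomal protein genes encode the protein subunits of the ribosome that works outside the mitochondria. They were taken as every row of the gene count table whose symbol follows the RPL, RPS, RPLP or RPSA naming scheme, which leaves out pseudogenes. That gave 103 rows with 84 symbols among 63677 rows in all, and 81 of them held enough reads to be tested among 15646 tested genes. Of the other rows, 20 had no read in any library. These are RPL10L and additional identifiers of genes such as RPS9, RPS18 and RPL36A that are also listed under an identifier with reads. The remaining 2 rows, among them RPS10L with 0 to 5 reads, had too few reads to test.

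RNA came from Jurkat, a human T cell acute lymphoblastic leukemia line, carrying the transcription factor TAL1 as a fusion with FKBP12. All groups carry this TAL1-FKBP12 fusion. Cells were kept for 24 h in the solvent DMSO, in the degrader dTAG-13, in GSI, or in both drugs together, called the combination here. GSI inhibits gamma-secretase, the protease that releases active NOTCH1. dTAG-13 directs proteins fused to the FKBP12 tag to the cereblon ubiquitin ligase, so it removes TAL1 as a protein, and TAL1 RNA is no check of the label. Each group had 2 libraries. Nothing in the labels says whether they came from separate cultures, so each p-value measures only how these samples differ, and that may be a technical spread. Whether the line is 1 clone is not given in the sources used here.

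A ribosome joins a small subunit, which reads the messenger RNA, to a large subunit, which forms the peptide bond, and each protein is needed in roughly equal number. Ribosomal protein mRNAs begin with a 5′ terminal oligopyrimidine (TOP) tract, a C followed by an unbroken run of C and T, through which the mTOR pathway and LARP1 set their translation and stability. MYC, a main NOTCH1 target in this leukemia, is known as an activator of ribosome production.

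The first transcribed bases are the feature that most of these genes share, so they are shown for genes on which the results turn. Each line gives 15 bases before and 15 bases from the start listed by RefSeq (GRCh38.p14). The TOP tract is in capitals as far as the printed bases reach. The counts were made on hg19, so these positions were not joined to any read position.
RPLP0 (stalk protein, chr12:120201097-120201126, minus strand): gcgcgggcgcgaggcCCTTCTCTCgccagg
RPS6 (small subunit, chr9:19380222-19380251, minus strand): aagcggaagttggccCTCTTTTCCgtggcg
RPSA (small subunit, chr3:39406705-39406734, plus strand): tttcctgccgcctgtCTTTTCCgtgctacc
RPS12 (small subunit, chr6:132814554-132814583, plus strand): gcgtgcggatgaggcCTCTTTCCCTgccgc
RPL38 (large subunit, chr17:74203663-74203692, plus strand): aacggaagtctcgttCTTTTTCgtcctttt
RPL22 (large subunit, chr1:6199581-6199610, minus strand): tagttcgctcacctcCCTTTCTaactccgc
RPL36A (large subunit, chrX:101390996-101391025, plus strand): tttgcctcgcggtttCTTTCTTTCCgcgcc
RPL36AL (related copy of RPL36A, chr14:49620612-49620641, minus strand): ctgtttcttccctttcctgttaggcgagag
RPL39 (large subunit, chrX:119791616-119791645, minus strand): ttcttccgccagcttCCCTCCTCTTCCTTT
RPS27 (small subunit, chr1:153990747-153990776, plus strand): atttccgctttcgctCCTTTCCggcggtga
RPS27L (related copy of RPS27, chr15:63157463-63157492, minus strand): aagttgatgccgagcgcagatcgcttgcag

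A tract was counted where the first transcribed base is C and at least 4 further C or T follow without a break, on the strand of the gene only. Of the 81 tested genes, 64 were matched in the RefSeq table by symbol, and 46 of these (71.9%) had a tract at 1 or more listed starts. Among all 27305 genes of the table the share was 5.14%, and it was 8.70% (6 of 69) for mitochondrial ribosomal protein genes. The median tract was 8 bases, and the longest was the 19-base run of RPL39. RPL36AL and RPS27L had none at their listed starts, whereas RPL36A and RPS27 did. A match describes these letters, and a missing match says only that the listed start lacks them.

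The ribosomal protein genes took 4.79% to 6.68% of all reads in a library. By library, the share was 6.36% and 5.71% with DMSO, 5.91% and 6.68% with dTAG-13, 4.79% and 6.07% with GSI, and 5.34% and 5.97% with the combination. The GSI 1 and combination 1 libraries were the lowest and dTAG-13 2 the highest. The second GSI and combination libraries lay between both DMSO libraries, so each treated group overlapped DMSO. The small subunit genes held 38.5% to 39.0% of these reads in every library, so the split between subunits moved by less than 1 percentage point while the total moved. In bulk RNA, fewer cells of a kind and less RNA per cell cannot be told apart.

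Levels differed widely between the genes. Levels are given as CPM, read counts scaled to library size with TMM factors, and between genes as CPM per kilobase (kb) of transcript, of which the median gene had 808. RPS2, a small subunit protein at the mRNA entry, stood highest with a mean of 3102 CPM per kb and 2507 to 3519 across libraries. RPLP0 and RPLP1, which form the stalk that recruits elongation factors, followed at 2398 and 2094 CPM per kb, and RPS6, the substrate of S6 kinase, at 1969. In each of the 8 libraries RPS2 was above RPLP0, and RPLP0 (2000 to 2743) above RPLP1 (1677 to 2620) and RPS6 (1600 to 2232), whereas RPLP1 and RPS6 changed places between libraries. RPL4 and RPL13A, large subunit proteins, were also among the 5 highest by CPM, with RPS2 (2961), RPLP0 (2651) and RPS6 (2213). In all, 73 of 81 genes had a mean of at least 100 CPM.

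Among the lowest per kilobase were related copies of a main gene and genes that overlap another listed gene. RPL3L, a copy of RPL3 known from muscle, had a mean of 0.23 CPM per kb against 1125 for RPL3. RPL36A stood at 18.8 CPM per kb, RPS10 at 46.8 and RPL17 at 49.7, and each overlaps a separately listed readthrough gene, which had 0 to 2, 0 to 4 and 16 to 41 reads. How reads shared by overlapping genes were counted is not given in the sources used here. The copies RPS27L and RPL39L stood at 34.6 and 51.9 CPM per kb, and RPL39 at 140, RPL22 at 174 and RPL36AL at 200.0 were also far below the median.

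Within each library most genes deviated the same way from their own mean, and in some libraries nearly all did. Deviations are log2(CPM + 0.5) minus the mean of the gene over the 8 libraries. The median deviation was 0.14 and −0.04 in the DMSO libraries, 0.02 and 0.26 with dTAG-13, −0.33 and 0.09 with GSI, and −0.20 and 0.05 with the combination. In GSI 1, 0 of 81 genes lay above their own mean, and in combination 1 only 2 did. In dTAG-13 2, 80 of 81 lay above it, and in dTAG-13 1 only 55 did. The count was 79 and 17 in DMSO 1 and 2, and 72 in GSI 2 and in combination 2. Over all tested genes the median deviation was between 0.00 and 0.01 in each library.

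**Figure D1:**
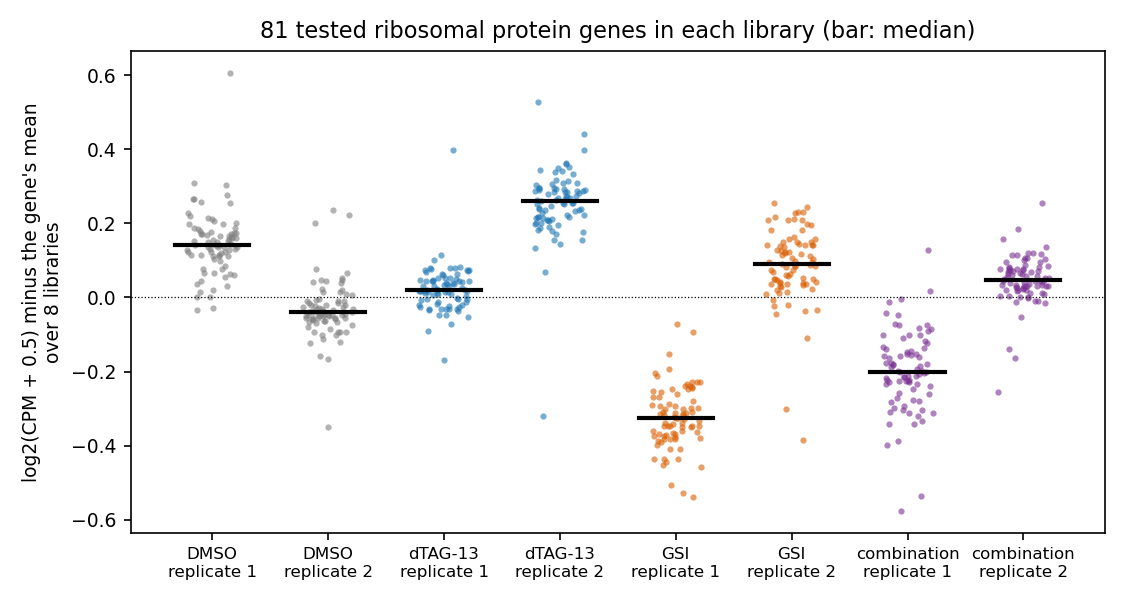
Deviation of each of the 81 tested ribosomal protein genes (points) from its own mean over the 8 libraries, on the log2(CPM + 0.5) scale, for the 4 groups of 2 libraries, with the median as a bar. The points of GSI replicate 1 all lie below 0, those of GSI replicate 2 centre on 0.09, and the replicates of every group stand apart.

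Replicates of a group stood apart. Replicate 1 minus replicate 2, the median difference of the ribosomal protein genes was 0.18 for DMSO, −0.24 for dTAG-13, −0.41 for GSI and −0.24 for the combination. In DMSO 75 of 81 genes were higher in replicate 1, and in the other groups 78 to 80 were lower in replicate 1. Over all tested genes the same medians ran from −0.0013 to 0.000031. No label names a batch, day or lane, so no value within a batch can be given.

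Across the 8 libraries the deviations of a gene followed the median of all 81 with a median correlation of 0.96, and 68 genes reached 0.9. The points share library and depth, and each gene is part of the median. The 5 genes below 0.8 included RPL3L (0.17), RPL36A (0.49), RPL39L (0.49) and RPLP1 (0.77). RPL3L rested on 6 to 17 reads per library.

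dTAG-13 against DMSO asks what follows TAL1 removal alone. No ribosomal protein gene passed the test in edgeR's quasi-likelihood F-test with Benjamini-Hochberg adjustment at 0.05, and 0 had an unadjusted p below 0.05. Among all genes tested, 0.0192% were called lower, 0% higher, and 3.84% had an unadjusted p below 0.05. The median log2 fold change of the 81 genes was 0.09 with 7 negative, against 0.01 over all genes, of which 48.1% were negative. It was −0.03 without dTAG-13 2 and 0.18 without DMSO 1. DESeq2's Wald test called 0 with 0 at an unadjusted p below 0.05. The authors' deposited table likewise has none of these genes below 0.05 in adjusted p, and the median there was 0.088.

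Only RPL22 and RPS3A had both dTAG-13 libraries above both DMSO libraries, and 0 had both below. Such separation upward was seen in 17.7% of all genes and downward in 17.6%. RPL22, a large subunit protein needed for αβ T cell development in mice, had 244 and 245 CPM with DMSO and 258 and 303 with dTAG-13. The log2 fold change was 0.20 with a standard error (SE) of 0.10, and the edgeR adjusted p was 0.9996. RPS3A, a small subunit protein, had 470 and 434 CPM with DMSO and 504 and 552 with dTAG-13, a log2 fold change of 0.22 (SE 0.12). RPS15A and RPS10 (small subunit) had the highest log2 fold changes, 0.26 each, and RPS26, which lies at the mRNA exit, had 0.20. RPL30 (−0.09), RPL39, RPS20 and RPL36A (−0.06 each) had the lowest among genes of at least 5 CPM.

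GSI against DMSO asks what follows gamma-secretase inhibition alone. No ribosomal protein gene passed the edgeR test, while 0.863% of all genes were called lower and 0.876% higher. At an unadjusted p below 0.05 there were 3 genes, RPL36A, RPL3L and RPL9, each with a negative log2 fold change, a share below the 14% of all genes. The lowest edgeR adjusted p was 0.302, for RPL36A. DESeq2's Wald test called 0, with 5 at an unadjusted p below 0.05, and in the authors' deposited table none passed, with a median log2 fold change of −0.169.

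The median log2 fold change with GSI was −0.16, with 77 of 81 negative, against 0.01 over all genes, of which 48.6% were negative. This median rested mainly on the low GSI 1 library and in part on the high DMSO 1 library. GSI 1 lay below DMSO 1 in 81 of 81 genes (median −0.47) and below DMSO 2 in 80. GSI 2 lay below DMSO 1 in 56 genes (median −0.05) and above DMSO 2 in 69 (median 0.14). Without GSI 1 the fitted median was 0.02, and without GSI 2 it was −0.39. It was −0.07 without DMSO 1 and −0.24 without DMSO 2. Both GSI libraries were below both DMSO libraries for 11 of 81 genes, 13.6%, where 20.9% of all genes showed this, and 0 were above, where 22.6% of all genes were.

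Those 11 genes included RPSA, RPS12 and RPS23 of the small subunit, RPL3L, RPL7, RPL7A, RPL9, RPL17 and RPL36A of the large subunit, and RPLP0 of the stalk. RPS23, a protein of the decoding centre, had 426 and 432 CPM with DMSO and 345 and 416 with GSI. RPLP0 had 2932 and 2635 CPM with DMSO and 2211 and 2576 with GSI, a log2 fold change of −0.22 (SE 0.11). RPS12 had 355 and 340 CPM with DMSO and 254 and 326 with GSI. In RPS23, RPLP0 and RPS12, GSI 1 was far below DMSO and GSI 2 just below it. Among genes of at least 5 CPM, RPS28 and RPL30 had the lowest log2 fold changes, −0.29 each (SE 0.17 and 0.14), yet their groups overlapped. RPS28, for example, had 369 and 291 CPM with DMSO and 210 and 329 with GSI. The highest were RPS15A and RPL39L (0.06 each), RPL36AL (0.02) and RPL34 (0.00).

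In RPL36A the GSI libraries lay close together. This large subunit protein sits at the exit site for the empty transfer RNA. It had 14.3 and 14.9 CPM with DMSO, 13.7 and 14.4 with dTAG-13, 12.2 and 11.9 with GSI, and 10.9 and 11.5 with the combination. All 4 libraries with GSI were below all 4 without it. Behind these values were 234 to 328 reads per library. The log2 fold change was −0.27 (SE 0.11) with GSI and −0.38 (SE 0.11) with the combination. In GSI 1, where the median gene lay at −0.33, RPL36A lay at −0.07, the highest of the 81.

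The combination against DMSO gave 0 ribosomal protein genes past the edgeR test, where 0.767% of all genes were called lower and 0.543% higher. Unadjusted p was below 0.05 for 2 genes, RPL36A and RPL3L, against 12.4% of all genes. The edgeR adjusted p of RPL36A was 0.151. DESeq2's Wald test called 0 with 1 at an unadjusted p below 0.05, and in the authors' deposited table none passed, with a median log2 fold change of −0.133. The edgeR median was −0.13 with 73 negative, against 0.00 over all genes, of which 49.5% were negative. Without combination 1 it was 0.00 and without combination 2 it was −0.25.

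Both combination libraries lay below both DMSO libraries for 7 genes, and 0 lay above, where 20.5% and 21.6% of all genes did so. They were RPSA, RPS23, RPL3L, RPL7A, RPL9, RPL17 and RPL36A. RPL38 is a large subunit protein known for its part in translating homeobox mRNAs. Among genes of at least 5 CPM it had the next lowest log2 fold change after RPL36A, −0.26 (SE 0.18). It had 275 and 237 CPM with DMSO and 168 and 260 with the combination, so its groups overlapped. RPL17 stood at −0.24 and RPS28 at −0.23, and the highest were RPL39L (0.13), RPS15A (0.06), RPL34 and RPL37 (0.02 each).

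**Figure D2:**
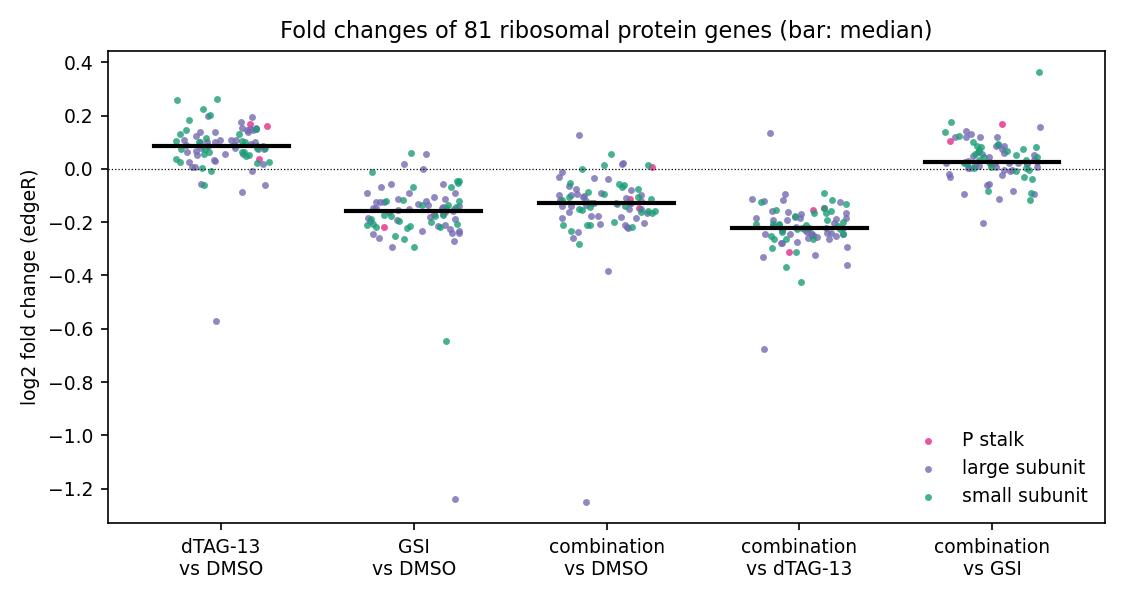
Fitted log2 fold change of the 81 tested ribosomal protein genes (points, coloured by subunit) in 5 comparisons, with the median as a bar. The medians run from −0.22 for the combination against dTAG-13 to 0.09 for dTAG-13 against DMSO, small and large subunit genes are mixed throughout, and the points below −0.5 belong to RPL3L and another gene with few reads.

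The combination against dTAG-13 asks what GSI does where TAL1 was removed. No ribosomal protein gene passed the edgeR test (0.569% of all genes were called lower and 0.639% higher), and 2 had an unadjusted p below 0.05, RPL36A and RPL22, where 13% of all genes did. The edgeR adjusted p of RPL36A was 0.239. DESeq2's Wald test called 0 with 5 at an unadjusted p below 0.05. The median log2 fold change was −0.22 with 80 negative, against 0.00 over all genes, of which 50.2% were negative. Both combination libraries were below both dTAG-13 libraries for 25 of 81 genes, 30.9%, and above for 0, where 21.3% and 22.2% of all genes did so. Combination 1 lay below dTAG-13 1 for 77 genes (median −0.23) and below dTAG-13 2 for 81 (median −0.46). Combination 2 lay above dTAG-13 1 for 54 genes (median 0.03) and below dTAG-13 2 for 79 (median −0.20). The median without dTAG-13 2 was −0.09, and it was also −0.09 without combination 1. Among genes of at least 5 CPM, RPS10 (−0.42, SE 0.24) and RPL38 (−0.36, SE 0.18) had the lowest values, and RPL39L (0.14) and RPS27L (−0.09) the highest.

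The combination against GSI asks what dTAG-13 adds to GSI. It gave 0 ribosomal protein genes past the edgeR test and 0 with an unadjusted p below 0.05, where 0.0383% of all genes were called lower, 0.0192% higher, and 4.14% had such a p. DESeq2's Wald test gave 0 and 0. The median was 0.03 with 20 negative, where 51.2% of all genes were, and it was −0.16 without GSI 1 and 0.26 without GSI 2. Both combination libraries were above both GSI libraries for 3 genes, RPSA and RPLP1 among them, and below for RPL36A, against 11.8% and 14% of all genes. RPLP1 had 905 and 952 CPM with DMSO, 910 and 1166 with dTAG-13, 746 and 911 with GSI, and 938 and 927 with the combination. It was thus low in GSI 1 but not in combination 1, and its log2 fold change in this comparison was 0.17 (SE 0.13). RPSA, which is also known as a laminin receptor, had 1083 and 1252 CPM with GSI and 1269 and 1272 with the combination. RPS12 had the highest log2 fold change among genes of at least 5 CPM (0.18), and RPL38 (−0.20) and RPS10 (−0.12) the lowest.

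How far the combination departed from both single effects added together, on the log2 scale, passed the edgeR test for 0 ribosomal protein genes, and 0 had an unadjusted p below 0.05. Among all genes 0% were called in either direction and 1.66% had such a p. DESeq2's Wald test also gave 0 and 0. The median departure was −0.06 with 58 negative, against −0.01 over all genes, of which 51.8% were negative. It was −0.23 without GSI 1 and 0.17 without GSI 2. Among genes of at least 5 CPM, RPS10 (−0.38) and RPL38 (−0.30) were lowest, and RPL30 (0.18) and RPS12 (0.10) highest.

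The medians of both subunits lay close together. The 32 tested small subunit genes had median log2 fold changes of 0.08 with dTAG-13, −0.18 with GSI and −0.13 with the combination. The 49 large subunit genes, stalk included, had 0.09, −0.15 and −0.13. The stalk proteins RPLP0, RPLP1 and RPLP2 had −0.22, −0.16 and −0.17 with GSI. RPL5 and RPL11, which bind MDM2 as part of the 5S particle, had −0.15 and −0.11 with GSI (SE 0.13 and 0.15). No test of the difference between subunits was made.

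Pairs of related genes show how far a copy can part from its partner. RPL39 had 64.0 and 58.6 CPM with DMSO, 52.9 and 64.5 with dTAG-13, 42.8 and 61.4 with GSI, and 44.7 and 60.5 with the combination. Its copy RPL39L, known from testis, had 38.8 and 36.6, 34.4 and 40.6, 36.3 and 42.1, and 36.1 and 46.3 CPM in the same order. Both were lower in replicate 1 of GSI and of the combination than in replicate 2, by less in RPL39L, and both genes had overlapping groups. RPL36AL, an autosomal copy of RPL36A, had 151 and 140 CPM with DMSO, 124 and 171 with GSI, and 119 and 165 with the combination. RPL36AL was thus low in replicate 1 alone, where RPL36A was low in both libraries with GSI. RPS27 had 630 and 577 CPM with DMSO and 442 and 656 with GSI. Its copy RPS27L, a p53 target, had 28.6 and 28.8 CPM with DMSO and 24.0 and 28.9 with GSI. Near copies can share reads, so single values of a pair are uncertain.

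**Figure D3:**
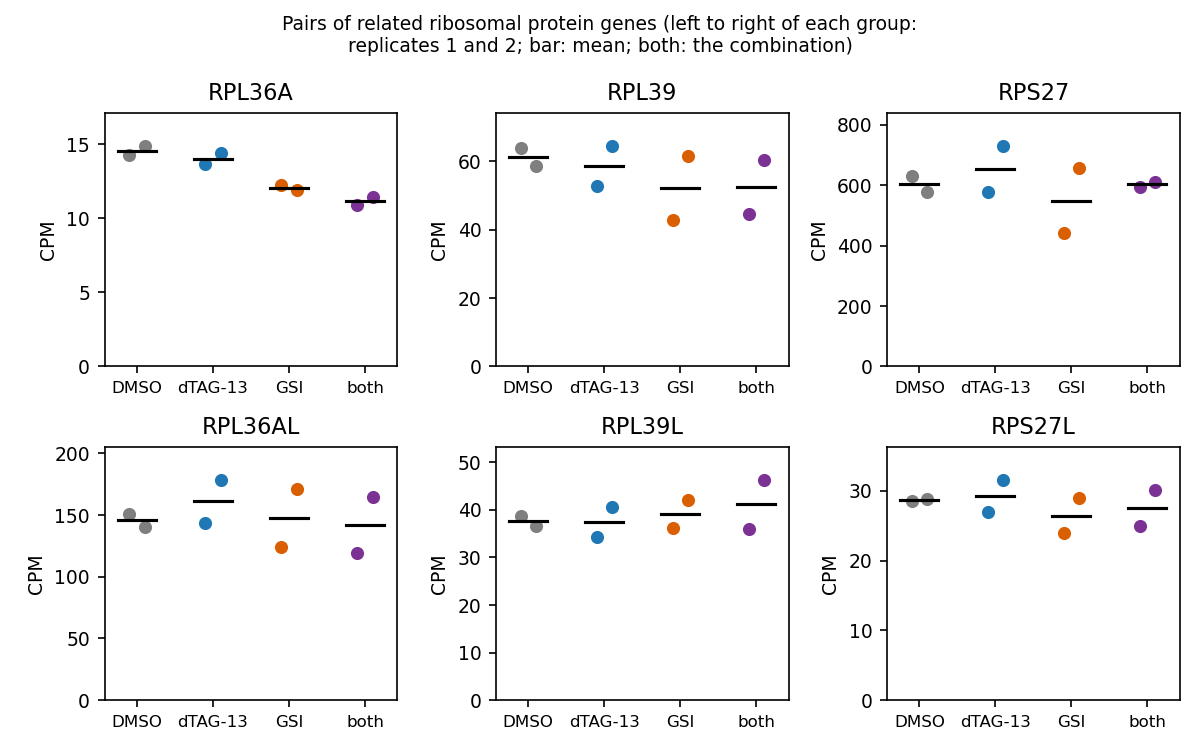
CPM (vertical axes from 0) of 3 ribosomal protein genes in the upper row and of their related copies in the lower row, for DMSO, dTAG-13, GSI and the combination (both), with 2 libraries as points and their mean as a bar. RPL36A is the panel in which the libraries with GSI lie close together at 10.9 to 12.2 CPM, below 13.7 to 14.9 in the others, while in RPL36AL and RPL39 the replicates spread widely.

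GSI was then compared with its absence over both backgrounds, 4 libraries against 4 in the same edgeR fit. This contrast was added after the values above had been seen and uses the same libraries. Here 1 ribosomal protein gene was called lower and 0 higher, where 3.56% of all genes were called lower and 3.38% higher. It was RPL36A, with a log2 fold change of −0.30 (SE 0.08) and an edgeR adjusted p of 0.0422. The call was lost with library totals in place of TMM factors (adjusted p = 0.0779) and in DESeq2's Wald test, which called 0. It was also lost without DMSO 1 (0.116), DMSO 2 (0.172), dTAG-13 1 (0.0970), dTAG-13 2 (0.180), GSI 1 (0.0801), GSI 2 (0.0670) or combination 1 (0.111), by edgeR adjusted p. Without GSI 2 the median log2 fold change of averaged GSI was −0.31, and without combination 2 it was −0.25. At an unadjusted p below 0.05 there were 17 ribosomal protein genes by edgeR and 32 by DESeq2's Wald test. The share of all genes at such a p was not taken for this contrast. DESeq2's Wald test called 599 of all 15646 genes lower.

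The median of this averaged GSI difference was −0.19 with 80 of 81 negative, and RPL39L (0.10) was the exception. All 4 libraries with GSI were below all 4 without it for RPL9, RPS23, RPL36A and RPL7A, 4 of 81, where 8.22% of all genes showed this, and 0 were above, where 7% did. RPL7A had 1380 and 1301 CPM with DMSO, 1294 and 1492 with dTAG-13, 1064 and 1255 with GSI, and 1081 and 1278 with the combination, so its groups with and without GSI were apart by 1278 against 1294. For dTAG-13 averaged in the same way, 0 genes were called by edgeR and 0 had an unadjusted p below 0.05 (0.422% of all genes were called lower and 0.0767% higher), DESeq2's Wald test gave 0, and the median was 0.06, or −0.03 without GSI 1. For 0 genes were all 4 libraries with dTAG-13 on 1 side of the others, where 1.55% of all genes were below and 1.07% above.

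Genes that build the ribosome were described beside those that encode its proteins. Of 52 tested ribosome biogenesis genes, 4 fell with GSI by the edgeR test and 0 rose, where 0.863% and 0.876% of all genes did. Of the 52, 51 had a negative log2 fold change, and the median was −0.31. Both GSI libraries lay below both DMSO libraries for 46 of 52, where 20.9% of all genes and 11 of 81 ribosomal protein genes did so. The genes that fell were MYBBP1A, a nucleolar protein (−0.53, edgeR adjusted p = 0.0202), POLR1B, a core subunit of RNA polymerase I (−0.49, adjusted p = 0.0173), UTP20, which acts in small subunit processing (−0.45, adjusted p = 0.0292), and RPF2, which brings the 5S particle to the large subunit (−0.41, adjusted p = 0.0397). POLR1B had 71.6 and 80.9 CPM with DMSO, 70.6 and 74.2 with dTAG-13, 54.7 and 53.9 with GSI, and 49.6 and 54.9 with the combination. Its replicates lay close and its groups with and without GSI did not overlap. With the combination the median of the 52 was again −0.31, and POLR1B (−0.55), MYBBP1A (−0.52), UTP20 (−0.42) and TSR1 (−0.41) fell. With dTAG-13 0 passed edgeR's test, 1 had an unadjusted p below 0.05, and the median was 0.01. By library, the median deviation of the 52 was 0.11 and 0.18 with DMSO and 0.12 and 0.21 with dTAG-13. It was −0.19 and −0.06 with GSI, and −0.32 and 0.00 with the combination, so the replicates of this list stood apart too. In all, 38 of 52 had all 4 libraries with GSI below all 4 without it, against 8.22% of all genes. Ribosomal protein genes are no part of this list, and the difference between the lists was not tested.

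**Figure D4:**
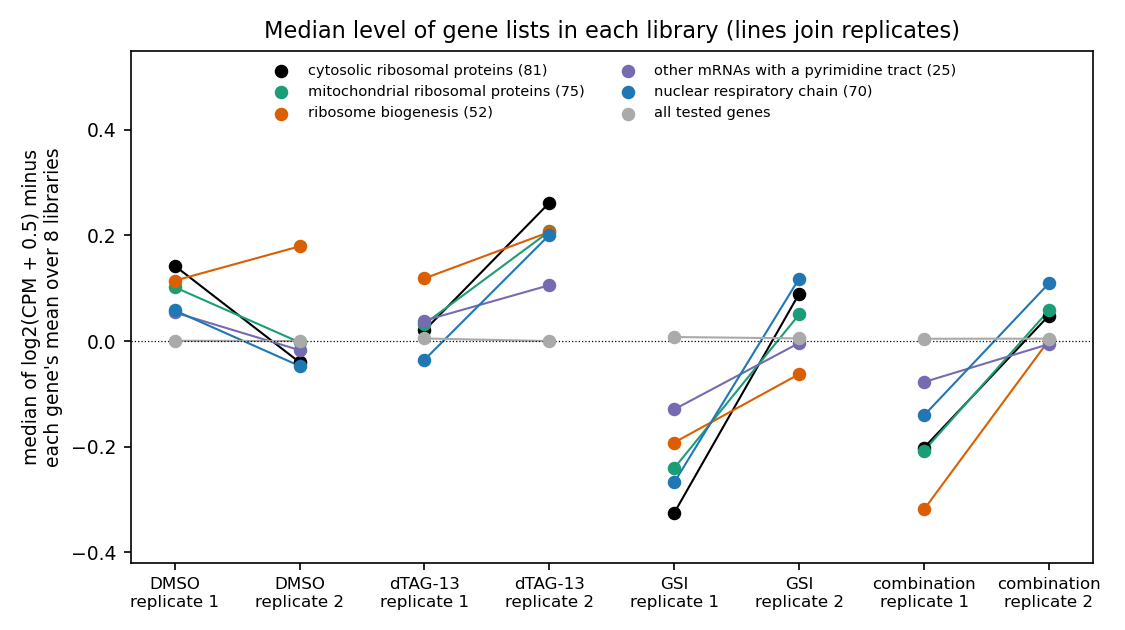
Median deviation from the mean of each gene over 8 libraries, log2(CPM + 0.5) scale, for 5 gene lists and all tested genes, with lines joining the replicates of a group. Cytosolic ribosomal protein genes (black) lie at −0.33 and 0.09 with GSI, on both sides of DMSO replicate 2, and at −0.20 and 0.05 with the combination. Ribosome biogenesis genes (orange) lie at −0.19 and −0.06 with GSI and −0.32 and 0.00 with the combination, below 0.11 and 0.18 with DMSO.

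Other gene lists accompany the ribosome. Of 9 ribosomal genes outside the naming scheme, 0 passed the edgeR test in the 3 comparisons with DMSO. Of these 9, 0, 2 and 2 had an unadjusted p below 0.05 with dTAG-13, GSI and the combination. Over all genes 3.84%, 14% and 12.4% had such a p, and these shares stand beside each list below. FAU, which encodes a ribosomal protein fused to a ubiquitin-like domain, had −0.15 with GSI, RACK1 (listed as GNB2L1) had −0.15, and RPL22L1, the copy of RPL22, had −0.22. FAU had 404 and 359 CPM with DMSO and 274 and 414 with GSI, again with overlap. The lowest was RPL7L1, −0.31 with an edgeR adjusted p of 0.0799. Of 25 other mRNAs known to start with a TOP tract, 0 passed, with medians of 0.07, −0.11 and −0.08, and NPM1 was lowest with GSI (−0.34) and VIM highest (0.16). At an unadjusted p below 0.05 these 25 gave 0, 1 and 2.

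Among 27 translation factors, 0 passed edgeR's test, with 0, 5 and 7 at an unadjusted p below 0.05 and medians of 0.03, −0.17 and −0.17, and EIF3B was lowest with GSI (−0.32). Both GSI libraries lay below both DMSO libraries for 15 of the 27, where 20.9% of all genes did, and the median deviation was 0.09 and 0.07 with DMSO and −0.11 and −0.01 with GSI. Among 9 chaperones of single ribosomal proteins, 0 passed, with 0, 3 and 2 at such a p, and GRWD1, which carries RPL3, was lowest with GSI (−0.35). Both GSI libraries were below DMSO for 5 of these 9. Among 15 hosts of small nucleolar RNAs, SNHG3 fell with GSI (−0.67, edgeR adjusted p = 0.00652) and with the combination (−0.51, adjusted p = 0.0331), and the other 14 did not pass. Both GSI libraries were below DMSO for 8 of the 15. SNHG3 had 119 and 114 CPM with DMSO and 66.9 and 79.6 with GSI.

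The medians of nuclear gene lists for mitochondrial proteins were low and high in the same libraries. For 75 mitochondrial ribosomal protein genes the median deviation was −0.24 in GSI 1, −0.21 in combination 1 and 0.21 in dTAG-13 2, and for 70 nuclear respiratory chain genes it was −0.27, −0.14 and 0.20. In each list 0 passed edgeR's test against DMSO. At an unadjusted p below 0.05 with dTAG-13, GSI and the combination, the mitochondrial ribosomal list gave 0, 14 and 7. The respiratory chain list gave 1, 2 and 2, where 3.84%, 14% and 12.4% of all genes had such a p. Both GSI libraries were below both DMSO libraries for 27 of the 75 and 9 of the 70, where 20.9% of all genes were. With GSI, MRPS12 (−0.43) and NDUFV2 (−0.41) were lowest and MRPS6 (0.16) and NDUFA13 (0.24) highest. Of 13 mitochondrially encoded mRNAs 0 passed, with 1 at an unadjusted p below 0.05 in each comparison, and MT-ND6 was highest with GSI (0.37) and MT-ATP8 lowest (−0.10). Among 18 tested histone genes HIST1H2AC rose with GSI (1.88, edgeR adjusted p = 0.0126) and the other 17 did not pass.

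Transcript length moved with the libraries too. Tested genes outside the naming scheme and at most 1734 nt long, which hold the shortest of the tested transcripts, numbered 5464. Other ribosomal genes, such as those for mitochondrial ribosomal proteins, were not left out. These 5464 genes had a median deviation of −0.06 in GSI 1, −0.03 in combination 1 and 0.06 in dTAG-13 2. The 1192 of them with at least 50 CPM had a median deviation of −0.14 in GSI 1, −0.11 in combination 1 and 0.11 in dTAG-13 2. Across the ribosomal protein genes the rank correlation of length with the deviation was 0.40 in GSI 1 and −0.36 in dTAG-13 2, and across all other genes 0.27 and −0.24, given as a description. For the ribosomal protein genes it was −0.09 and 0.12 in DMSO 1 and 2, 0.25 in dTAG-13 1 and −0.36 in GSI 2. In combination 1 and 2 it was 0.22 and −0.32. Across all other genes the correlation was −0.09 and 0.14 in DMSO 1 and 2, 0.02 in dTAG-13 1 and −0.19 in GSI 2. In combination 1 and 2 it was 0.16 and −0.18 for these other genes. The part of length in the deviations of the ribosomal protein genes was not tested. The ribosomal protein transcripts had a median length of 750.5 nt. With an offset for length in each library the GSI median was −0.19, and 0 genes were called. Genes with a TOP tract had a median deviation of −0.34 in GSI 1, and those with none at their listed starts −0.31. In dTAG-13 2 these medians were 0.27 and 0.24, so both kinds moved alike by library.

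Total counts were 17544319 to 22180009 per library, and 7.80% to 8.81% of reads were mitochondrial. The summed level of 11 T cell markers was 3397 to 3983 CPM, within which CD7 fell with GSI (−0.57) and CD2 (0.50) and TRAC (1.40) rose by the edgeR test. Sums of 7 markers each were 0.420 to 0.866 CPM for myeloid cells, 0.386 to 1.16 for erythroid cells and megakaryocytes, and 2.497 to 4.85 for epithelial and stromal cells. The B cell sum was 69.8 to 81.3 CPM without GSI and 97.7 to 119.9 with it, of which CD79A was the one called gene (0.59 with GSI). The part of these markers in the ribosomal protein values was not tested.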

How the data were processed

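The authors deposited integer counts per gene and library, and 3 tables of their own DESeq2 comparisons with DMSO. In those deposited tables the log2 fold changes, their errors, the score (fold change over error) and each p-value are the authors'. Their mean level, also deposited, is a signal (counts over size factors) and was not used. Per the submitters' processing notes they used STAR 2.5.2a, featureCounts, DESeq2 1.12.4 and hg19. Per the labels, libraries were strand-specific and paired-end. Neither the annotation nor the strand setting of counting is given in the sources used here. Overlapping genes and near copies are therefore uncertain.

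The 8 libraries, 2 in each of 4 groups, entered 1 edgeR 4.0.16 quasi-likelihood model (R 4.3.3) with TMM factors and robust dispersions, on the 15646 genes kept by filterByExpr, with 4 residual degrees of freedom. F-tests were 2-sided, adjusted over all genes tested. SE is the log2 fold change over the square root of F. Alternatives included DESeq2 1.42.0, other scalings, no filter, a replicate block, offsets for length, and each library left out. Transcript lengths are GENCODE v29 medians per gene identifier, over protein-coding transcripts where the gene has any. edgeR was tested on simulated data first. Replicates differed beyond counting noise (chi-square over degrees of freedom 4.45 to 13.4).

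Named genes are the 4 highest and the 4 lowest of at least 5 CPM in each comparison with DMSO, 2 and 2 in the others, called genes, the 5 highest by CPM and fixed genes. Members, lists and rules were chosen with earlier results of these data known. Genes whose groups do not overlap, and those with outlying correlations, were named after their values were seen. Some genes that enter the counts are not reported here by name.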

Additional observations from a re-analysis of the deposited data

How the results depend on the processing

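In the 6 comparisons the count of ribosomal protein genes called by edgeR stayed at 0 with DESeq2's size factors, library totals, TMM factors computed without these genes, offsets for length and for length with GC content (the second added after seeing the data), DESeq2's Wald test and, in the 5 comparisons between groups, the compared libraries alone. With no filter on low counts 1 was called lower with GSI (RPL30) and 1 in the combination against dTAG-13 (RPLP2). Of all 30406 genes then tested, 357 and 299 were called lower. With the replicate block 0 were called in the 6 comparisons and 5 for GSI averaged over both backgrounds, where the block moved the count from 1. Over all 15646 genes the block moved the number called lower for averaged GSI from 557 to 964. No label says that replicate numbers mark a shared culture. The differences of replicate 1 minus 2 over 10555 genes correlated at −0.19, −0.37 and −0.14 between DMSO and the other groups and at 0.51 to 0.59 among those. With the DMSO numbers crossed, a replicate block chosen after seeing the data, 23 were called lower with GSI, where 865 of all 15646 genes were. There were 5 with the combination (692 of all genes), 38 in the combination against dTAG-13 (835) and 65 for averaged GSI (1768). With dTAG-13, 1 (RPS15A) was called higher, where 20 of all genes were. For averaged GSI the count was 0 with library totals, 33 with no filter and 0 with DESeq2's Wald test. Over all genes it was 419 of 15646, 991 of 30406 and 599 of 15646, all called lower.

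Leaving out 1 library at a time gave 0 to 1 lower with GSI (RPS28 without GSI 2) and 0 to 26 for averaged GSI. The median log2 fold change then ran from −0.388 to 0.0154 for GSI, −0.159 to 0.259 for the combination against GSI, and −0.233 to 0.174 for the departure from added single effects. It ran from −0.0317 to 0.193 for dTAG-13 and −0.0327 to 0.170 for averaged dTAG-13. The median stayed negative for averaged GSI (−0.306 to −0.0956), the combination against dTAG-13 (−0.342 to −0.0896) and the combination against DMSO (−0.255 to −0.000454). The cause was not tested.

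Single genes with a log2 fold change near 0 changed sign. RPS27L in dTAG-13 against DMSO was −0.0127 with the length offset and −0.0345 with the length and GC offset. RPL34 in GSI against DMSO was −0.00634 with DESeq2's size factors, −0.00378 with no filter, −0.0216 with the replicate block, −0.0349 with the length offset, −0.0507 with the length and GC offset, −0.0182 with the crossed replicate block, −0.00237 with the compared libraries alone and −0.00636 with DESeq2's Wald test. RPL36AL in GSI against DMSO was −0.00471 with the replicate block, −0.00624 with the length offset, −0.0246 with the length and GC offset and −0.000663 with the crossed replicate block. RPS27 in the combination against DMSO was −0.00380 with DESeq2's size factors, −0.00479 with the replicate block, −0.0400 with the length offset, −0.0333 with the length and GC offset and −0.00384 with DESeq2's Wald test. RPL37 in the combination against DMSO was −0.0166 with the length offset and −0.0178 with the length and GC offset. RPL34 in the combination against DMSO was −0.0133 with the length offset and −0.0125 with the length and GC offset. RPL36A in the departure from added single effects was 0.0106 with the length and GC offset.

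Leaving out 1 library at a time moved these values across 0. In GSI against DMSO they were RPL22 from −0.169 to 0.0451, RPL34 from −0.269 to 0.228, RPL36AL from −0.229 to 0.232, RPL39 from −0.515 to 0.00461, RPL39L from −0.0542 to 0.159, RPS15A from −0.166 to 0.328, RPS27 from −0.450 to 0.122, RPS27L from −0.260 to 0.00890. In the combination against DMSO they were RPL22 from −0.108 to 0.0478, RPL34 from −0.0927 to 0.132, RPL36AL from −0.294 to 0.179, RPL37 from −0.0698 to 0.101, RPL38 from −0.607 to 0.0217, RPL39L from −0.0624 to 0.300, RPS15A from −0.172 to 0.323, RPS27 from −0.0614 to 0.0652, RPS27L from −0.203 to 0.0679. In dTAG-13 against DMSO they were RPL30 from −0.240 to 0.0802, RPL36AL from −0.0175 to 0.286, RPL39 from −0.212 to 0.0661, RPL39L from −0.132 to 0.101, RPLP0 from −0.0594 to 0.116, RPS20 from −0.193 to 0.0818, RPS27 from −0.0608 to 0.267, RPS27L from −0.0913 to 0.129. In the combination against GSI they were RPL38 from −0.550 to 0.0827, RPS10 from −0.554 to 0.248. In dTAG-13 averaged over both backgrounds they were RPL38 from −0.225 to 0.0896. In the combination against dTAG-13 they were RPL39L from −0.0552 to 0.310, RPS27L from −0.229 to 0.0446. In the departure from added single effects they were RPS12 from −0.0723 to 0.289. In GSI averaged over both backgrounds they were RPS15A from −0.187 to 0.0607.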
